A study of Mus musculus with 4 samples.

Results

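The miR-130 and miR-301 family was followed in small RNA libraries of cultured mouse synovial fibroblasts, the cells that line the joint. Its members were the rows named mmu-miR-130a, mmu-miR-130b, mmu-miR-301a or mmu-miR-301b, whatever the arm of the hairpin. These were 5 of the 590 miRNAs listed in any library: the strands miR-130a, miR-130b, miR-301a and miR-301b, and miR-130b*, the opposite arm of the mir-130b hairpin. All 5 were listed in all 4 libraries and all 5 passed the filter on low counts. The opposite arms of the other 3 hairpins are not analysed here.

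The libraries came from 2 TghuTNF cultures and 2 wild-type (WT) cultures. TghuTNF mice carry a human TNF transgene and develop arthritis, and WT littermates were the controls. All mice were 8 weeks old and of a mixed CBA/J and C57BL/6/J background, and cells were taken from hind joints and used at passage 4. Per the labels the cultures were largely CD90.2-positive and nearly free of Mac1-positive cells by FACS. The series design calls the cultures biological replicates, so p-values measure the spread between 2 cultures of each genotype. The promoter and line of the transgene, the sex of the mice and any pooling of mice are not stated in the labels.

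A miRNA guides silencing complexes to messenger RNAs that pair with its seed, bases 2 to 8 counted from the 5' end. Members of the family share their seed and are therefore taken to share many targets, among them Pparg, the nuclear receptor that drives fat cell differentiation and restrains inflammatory and fibrotic genes. In lung vessels the family has been linked to matrix remodelling and stiffening under the mechanosensitive regulators YAP and TAZ, and in mouse adipocytes TNF has been described to raise miR-130. In human cells miR-301a represses NKRF, a repressor of NF-kB.

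The mature sequences, from RefSeq on GRCm38, show what the counting had to tell apart, so they are given with the seed in capitals.
miR-130a: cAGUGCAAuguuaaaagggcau
miR-130b: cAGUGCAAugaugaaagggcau
miR-301a: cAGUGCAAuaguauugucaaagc
miR-130b*: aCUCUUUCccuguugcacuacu
For miR-301b the hairpin is shown, with the stretch most like miR-301a in capitals, and this stretch is assumed below to be the strand the authors searched.
mir-301b hairpin: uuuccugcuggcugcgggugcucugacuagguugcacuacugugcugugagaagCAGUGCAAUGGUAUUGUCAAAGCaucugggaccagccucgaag
The neighbouring mir-130b hairpin has its 2 arms in capitals, miR-130b* before miR-130b.
mir-130b hairpin: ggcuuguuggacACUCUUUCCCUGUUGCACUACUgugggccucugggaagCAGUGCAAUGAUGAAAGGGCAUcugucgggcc
The 4 seed-sharing strands have the same first 9 bases. miR-130a and miR-130b differ at 2 of 22 bases, U11A and A13G, where the base of miR-130a stands first and positions count from the 5' end. miR-301a and the mir-301b stretch differ at 1 of 23 bases, A10G, with the base of miR-301a first. miR-130a and miR-301a differ at 10 of the 22 bases they could be compared over. The arm miR-130b* has another seed, CUCUUUC, and so does not belong to the seed pool.

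The family comes from 3 places in the genome (GRCm38, GENCODE M21 annotation). Mir130a lies at chr2:84741115-84741178 on the minus strand, outside annotated genes, with Gm19426 as the nearest at 991 bases and Ypel4 at 2460 bases. The miR-301a hairpin lies at chr11:87113004-87113089 on the plus strand in an intron of Ska2, which encodes a subunit of a spindle and kinetochore complex. Mir130b, at chr16:17124061-17124142, and Mir301b, at chr16:17124400-17124496, both on the minus strand, lie 257 bases apart in introns of 2610318N02Rik. Neither overlapped an annotated exon.

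Total matches per library were 27362819 and 22959408 in TghuTNF and 16680860 and 26542371 in WT. Values are given as CPM, counts scaled to a common library total with TMM factors, and a count of 0 would allow up to 0.110 to 0.180 CPM. TMM factors were 0.98 to 1.03. Between 66.0% and 70.5% of all matches were perfect. Markers of fibroblasts and other mesenchymal cells were high as a sum in every library, with 6 markers summing to 283580 and 304758 CPM in TghuTNF and 281581 and 294349 CPM in WT. Most of this was miR-21, at 160298 to 190785 CPM, and miR-143, at 97646 to 113553 CPM. By contrast miR-145 stood at 78.4 to 190 CPM. miR-214 stood at 117 and 99.5 CPM in TghuTNF and 256 and 156 CPM in WT. Both lay below the muscle marker miR-206, at 1158 to 2003 CPM. As sums, markers of other cell types were scarcer. Summed levels in TghuTNF and WT were 66.7 to 68.8 and 107.6 to 126.7 CPM for 2 endothelial markers, 21.6 to 28.8 and 6.46 to 16.1 CPM for 6 blood cell markers, 30.7 to 36.8 and 67.7 to 70.9 CPM for 7 epithelial markers, and 1784 to 2055 and 2426 to 3008 CPM for 5 muscle markers. The epithelial sum was lower through miR-203, at 25.2 and 19.8 CPM in TghuTNF and 59.0 and 62.4 CPM in WT. By contrast miR-200b, miR-200c and miR-141 stood higher in both TghuTNF libraries, miR-200b at 5.72 and 4.75 against 4.02 and 3.71 CPM. Among the muscle markers miR-499 was higher, at 1.45 and 1.11 CPM in TghuTNF and 0.37 and 0.70 CPM in WT. The 2 cartilage markers summed to 18505 and 26026 CPM in TghuTNF and 12249 and 13064 CPM in WT. Each marker had a match in at least 1 library. The part of these shifts in the values below was not tested, and in such bulk cultures fewer cells of a type and less RNA per cell cannot be told apart.

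No member of the family passed the test for a difference between TghuTNF and WT fibroblasts. miR-130a was the dominant member and stood between rank 80 and rank 89 of the listed miRNAs. It was followed at a distance by miR-301a, then miR-130b, and miR-130b* was the scarcest. The edgeR quasi-likelihood test with Benjamini-Hochberg adjustment called 0 of the 5 members, where it called 13.3% of the 442 miRNAs tested, 4.75% as higher and 8.6% as lower in TghuTNF. DESeq2 called 0 of the 5 as well, where it called 69 of the 442 miRNAs, 26 as higher and 43 as lower in TghuTNF. By edgeR the number of members with an unadjusted p under 0.05 was 0, beside 29% of all tested.

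miR-130a, which in human endothelial cells has been described to act on homeobox genes, had 10646 and 9902 matches in TghuTNF against 7053 and 13641 in WT. Scaled to depth, these were 385.6 and 439.6 CPM in TghuTNF and 429.3 and 501.1 CPM in WT. The genotypes overlapped, because TghuTNF replicate 2 lay above WT replicate 1. The means were 412.6 ± 38.2 CPM in TghuTNF and 465.2 ± 50.8 CPM in WT (SD, n = 2 each). The log2 fold change was -0.17 ± 0.19 (SE; edgeR adjusted p = 0.59), with a 95% interval of -0.59 to 0.25 on the log2 scale.

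miR-301a, from the intron of Ska2, had 1168 and 863 matches in TghuTNF against 540 and 1093 in WT. These were 42.3 and 38.3 CPM in TghuTNF and 32.9 and 40.1 CPM in WT, and the genotypes overlapped. The log2 fold change was 0.14 ± 0.23 (SE; edgeR adjusted p = 0.74; 95% interval -0.38 to 0.66).

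miR-130b had 369 and 332 matches in TghuTNF against 164 and 348 in WT, which were 13.4 and 14.7 CPM in TghuTNF and 9.98 and 12.8 CPM in WT. Both TghuTNF libraries lay above both WT libraries, though TghuTNF replicate 1 did so by less than 1 CPM. Its log2 fold change was 0.30 ± 0.26 (SE; edgeR adjusted p = 0.48; 95% interval -0.28 to 0.88). The opposite arm, miR-130b*, had 75 and 72 matches in TghuTNF against 39 and 69 in WT, or 2.72 and 3.20 CPM in TghuTNF and 2.37 and 2.53 CPM in WT. It too stood higher in both TghuTNF libraries, with a log2 fold change of 0.26 ± 0.32 (SE; edgeR adjusted p = 0.63; 95% interval -0.45 to 0.98). Genotypes that do not overlap, as in these 2 of 5 members, were common, since 30.8% of all tested miRNAs were higher and 29.9% lower in both TghuTNF libraries than in both WT libraries.

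The ratio of the 2 arms of mir-130b overlapped between genotypes. miR-130b had 4.92 and 4.61 times the matches of miR-130b* in TghuTNF and 4.21 and 5.04 times in WT. The log2 arm ratio differed by 0.052 ± 0.24 (SE) between TghuTNF and WT, on which the limma test gave an adjusted p = 0.98. Over all 104 hairpins with both arms counted, limma called 0 (0%), and 6 (5.77%) had an unadjusted p under 0.05.

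miR-301b appeared almost as abundant as miR-301a, with 1143 and 800 matches in TghuTNF against 520 and 1073 in WT. These were 41.4 and 35.5 CPM in TghuTNF and 31.6 and 39.4 CPM in WT. Its counts were 0.93 to 0.98 times those of miR-301a in every library. The log2 fold change of 0.11 ± 0.24 (SE; edgeR adjusted p = 0.79; 95% interval -0.42 to 0.64) was accordingly close to that of miR-301a.

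**Figure D1:**
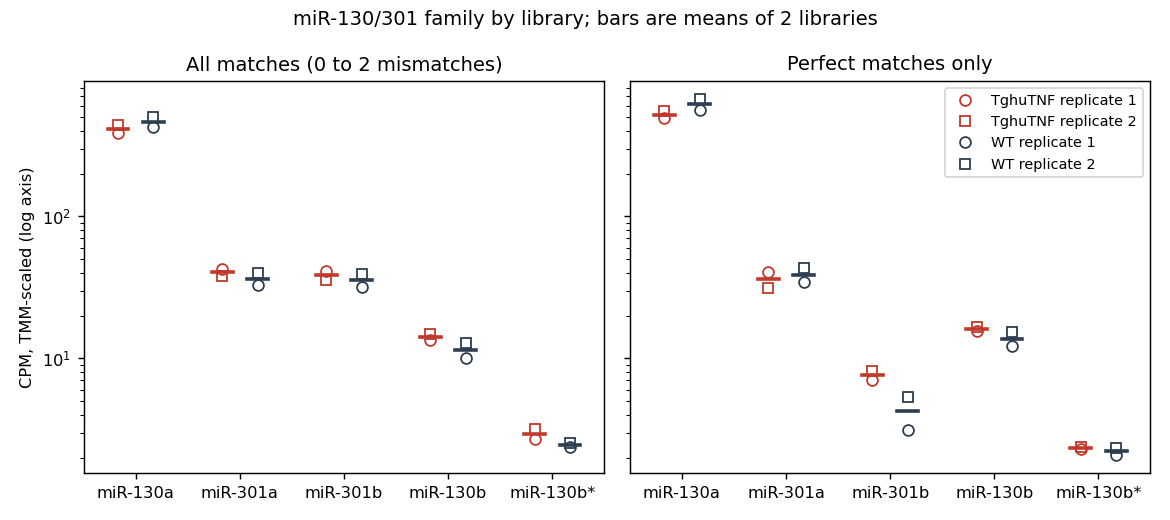
Levels of the 5 family rows in each library (CPM, log axis), TghuTNF left of WT, from all matches (left panel) and from perfect matches only (right panel); bars are means of 2 libraries. miR-301b stands level with miR-301a in all matches, at 38.5 CPM in TghuTNF and 35.5 CPM in WT, but at 7.64 and 4.24 CPM in perfect matches.

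Few of the matches of miR-301b were perfect, and most had 1 mismatch. Of the matches of miR-301b, 12.1% and 15.5% were perfect in TghuTNF and 6.92% and 9.32% in WT. Exact 95% binomial intervals, which cover counting error only, ran from 10.2% to 14.1% and 13.1% to 18.2% in TghuTNF and from 4.90% to 9.46% and 7.65% to 11.2% in WT. By contrast 84.0% to 92.1% of the matches of miR-130a, 75.6% to 86.0% of those of miR-130b and 54.9% to 73.5% of those of miR-301a were perfect. For miR-130b* the share was 50.0% to 63.8%.

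**Figure D2:**
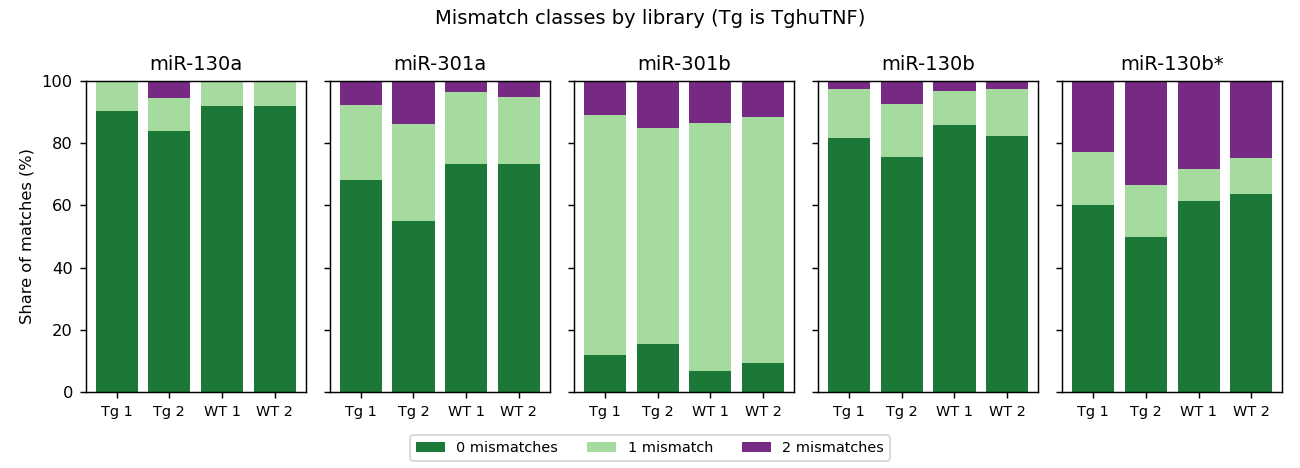
Share of each member's matches with 0, 1 and 2 mismatches in each library (percent; Tg is TghuTNF). miR-301b is dominated by 1-mismatch matches in all 4 libraries (69.2% to 79.4%), whereas perfect matches are the largest class of the other strands. Their lowest perfect share is 50.0%, for miR-130b* in TghuTNF replicate 2. The 2-mismatch share is highest in TghuTNF replicate 2 for each of the 5.

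The 1-mismatch class of miR-301b held 879 and 554 reads in TghuTNF and 413 and 849 in WT. The perfect matches of miR-301a numbered 796 and 474 in TghuTNF and 396 and 803 in WT. In each library the class of miR-301b exceeded the perfect matches of miR-301a by a small remainder, 83 and 80 reads in TghuTNF and 17 and 46 in WT. If the marked stretch is the strand searched, the strands differ only by A10G, and a perfect miR-301a read is a 1-mismatch read of miR-301b. Perfect miR-301a reads equalled 59.2% to 76.2% of all matches of miR-301b in number. Whether the same reads were entered in both rows was not tested.

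In reverse the counts were less close. The 1-mismatch class of miR-301a held 283 and 269 reads in TghuTNF and 125 and 235 in WT. It exceeded the 36 to 138 perfect matches of miR-301b by 89 to 145 reads in every library. The 1-mismatch class of miR-130a also exceeded the perfect matches of miR-130b in every library, so such an excess does not show sharing. A pair outside the family with 1 differing base, miR-19a and miR-19b (U11C), had a close match like that of miR-301b to miR-301a. The 1-mismatch class of miR-19a held 492 and 365 reads in TghuTNF and 365 and 648 in WT. Perfect reads of miR-19b numbered 476 and 349 in TghuTNF and 353 and 626 in WT.

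No such closeness in counts was seen between miR-130a and miR-130b, which differ by U11A and A13G. The 2-mismatch class of miR-130b held 10 and 25 reads in TghuTNF and 5 and 9 in WT. In the same libraries miR-130a had 9626 and 8319 perfect reads in TghuTNF and 6498 and 12566 in WT. Perfect reads of miR-130a were therefore not entered in the row of miR-130b, although the stated limit of 2 mismatches would admit them.

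**Figure D3:**
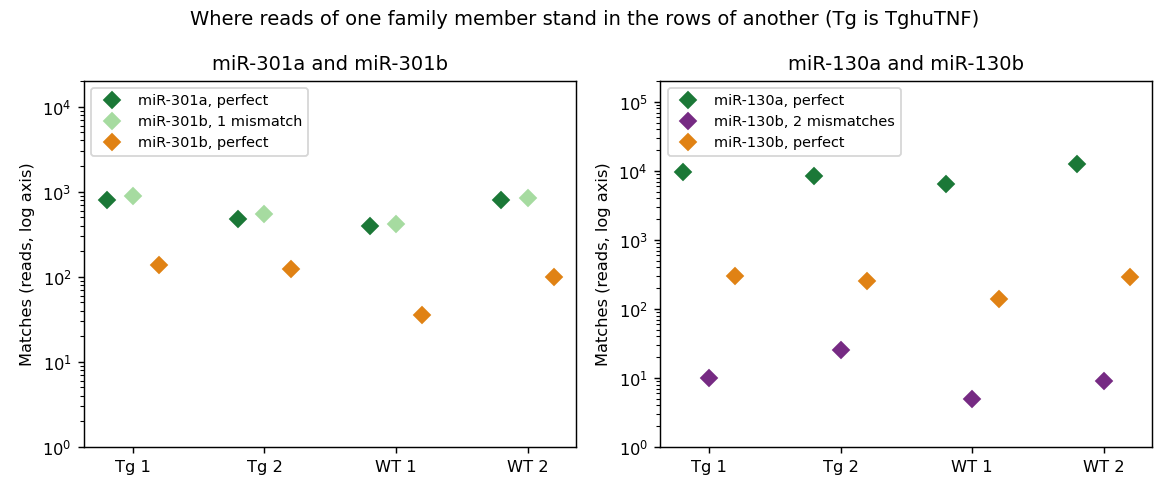
Matches in each library (reads, log axis; Tg is TghuTNF) for miR-301a and miR-301b (left) and for miR-130a and miR-130b (right). The 1-mismatch reads of miR-301b sit just above the perfect reads of miR-301a in all 4 libraries, while the 2-mismatch reads of miR-130b (5 to 25) lie far below the perfect reads of miR-130a (6498 to 12566).

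A read cannot fit perfectly 2 strands that differ at a base within it, so perfect matches separate the members. In these, miR-301b, the scarcest of the 4 seed-sharing strands, had 138 and 124 reads in TghuTNF against 36 and 100 in WT. Scaled to perfect matches they were 7.09 and 8.19 CPM in TghuTNF and 3.12 and 5.35 CPM in WT, so both TghuTNF libraries lay above both WT libraries. The fitted change was 1.78-fold (log2 0.83 ± 0.35, SE) with an unadjusted p of 0.040 by edgeR, a p under 0.05 being found for 28.7% of the miRNAs tested. Adjusted over all 380 miRNAs tested in perfect matches it was 0.16, so miR-301b did not pass. The log2 fold change was 0.54 without WT replicate 1, the library with 36 reads, and 1.28 without WT replicate 2 (edgeR adjusted p = 0.63 and 0.17). Without TghuTNF replicate 1 it was 0.92 (edgeR adjusted p = 0.083).

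The other members did not pass in perfect matches either, where edgeR called 13.2% of the 380 miRNAs, 5% as higher and 8.16% as lower in TghuTNF. miR-130a stood at 494.2 and 549.2 CPM of perfect matches in TghuTNF and 564.0 and 672.8 CPM in WT, a log2 fold change of -0.25 ± 0.20 (SE; edgeR adjusted p = 0.44). Both TghuTNF libraries then lay below both WT libraries, as for 32.9% of all tested miRNAs. miR-301a stood at 40.9 and 31.3 CPM in TghuTNF and 34.4 and 43.0 CPM in WT and changed by -0.10 ± 0.26 (SE; edgeR adjusted p = 0.83), against 0.14 in all matches. miR-130b stood at 15.5 and 16.6 CPM in TghuTNF and 12.2 and 15.3 CPM in WT (0.22 ± 0.27, SE; edgeR adjusted p = 0.67), and with miR-301b it did not overlap between genotypes, as for 27.4% of all tested miRNAs that were higher in TghuTNF. miR-130b* stood at 2.31 and 2.38 CPM in TghuTNF and 2.08 and 2.36 CPM in WT (0.071 ± 0.34, SE; edgeR adjusted p = 0.91).

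**Figure D4:**
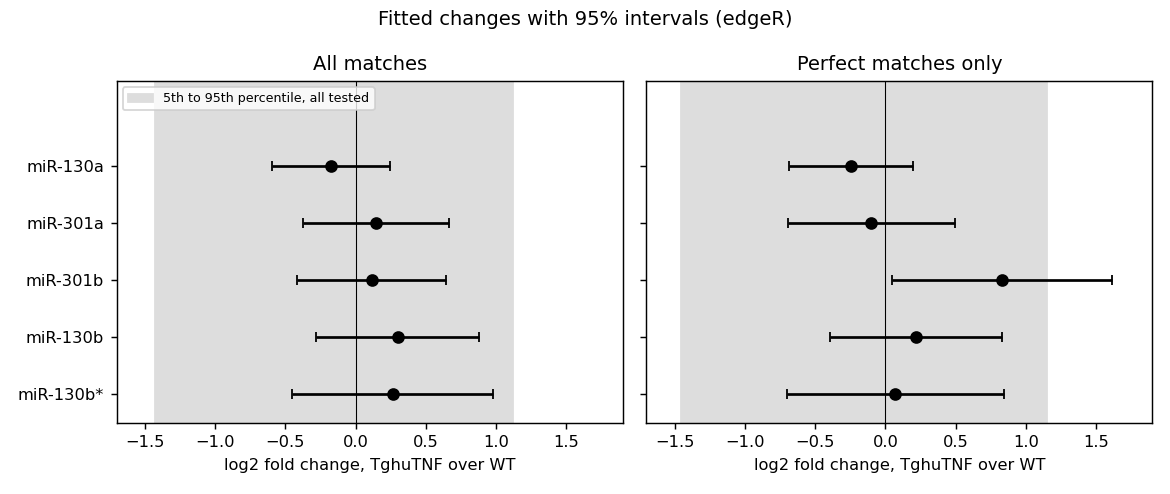
Log2 fold change of TghuTNF over WT for each member with its 95% interval, from all matches (left) and perfect matches (right); the grey band spans the 5th to 95th percentile of all tested miRNAs (-1.43 to 1.12 and -1.45 to 1.15). The point of every member lies inside the band, and only the interval of miR-301b in perfect matches (0.045 to 1.61, unadjusted) leaves out 0.

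The seed pool, the summed level of all listed strands with the seed AGUGCAA, overlapped between genotypes in all matches. It stood at 482.9 and 530.2 CPM in TghuTNF and 504.0 and 593.6 CPM in WT, and the means had a ratio of 0.92. This sum counts any read entered under both miR-301a and miR-301b in both rows. In perfect matches, which count each read once, the pool was 557.7 and 605.3 CPM in TghuTNF and 613.8 and 736.4 CPM in WT, a ratio of 0.86 between the means. Both TghuTNF libraries were then below both WT libraries, TghuTNF replicate 2 by under 10 CPM. No test was run on the pool.

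miR-130a made up most of the pool, 88.6% and 90.7% of its perfect reads in TghuTNF and 91.9% and 91.4% in WT. miR-301a gave 7.33% and 5.17% in TghuTNF and 5.60% and 5.84% in WT. The chromosome 16 strands took larger shares in TghuTNF: miR-130b gave 2.78% and 2.74% in TghuTNF and 1.99% and 2.08% in WT, and miR-301b gave 1.27% and 1.35% in TghuTNF and 0.51% and 0.73% in WT. The shares of these 2 strands were higher and that of miR-130a lower in both TghuTNF libraries than in both WT libraries, while that of miR-301a overlapped. For a related measure, the ratio of 2 single miRNAs in perfect matches, the genotypes did not overlap in 61.4% of all pairs of tested miRNAs. No such background was computed for shares of a pool.

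Ratios between strands restate these shares, since both come from the same perfect reads and neither depends on the scaling of libraries. There were 31.9 and 33.1 perfect reads of miR-130a for each of miR-130b in TghuTNF, against 46.1 and 43.9 in WT. There were 5.77 and 3.82 perfect reads of miR-301a for each of miR-301b in TghuTNF, against 11.0 and 8.03 in WT. As a share of both strands miR-301b was 14.8% and 20.7% in TghuTNF, with exact binomial intervals of 12.6% to 17.2% and 17.6% to 24.2%. In WT the share was 8.33% and 11.1%, with intervals of 5.90% to 11.4% and 9.10% to 13.3%. The chromosome 16 neighbours also differed, with 2.19 and 2.02 perfect reads of miR-130b for each of miR-301b in TghuTNF against 3.92 and 2.86 in WT.

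Of the 6 ratios among the 4 strands, 5 did not overlap between genotypes, and the ratio of miR-130a to miR-301a did. The same was found in 61.4% of all pairs of tested miRNAs. No test was run on the ratios.

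The odds of a perfect match were compared between genotypes for the 4 strands, as the log2 ratio of perfect to mismatched reads. For miR-301b these stood at -2.86 and -2.44 in TghuTNF and -3.73 and -3.28 in WT, a difference of 0.85 ± 0.30 (SE; limma adjusted p = 0.83, unadjusted p = 0.045). Where miR-301a reads enter its mismatch class, this measure is not independent of the ratio of miR-301b to miR-301a. The odds of miR-301a would be tied to the same ratio wherever miR-301b reads enter the mismatch class of miR-301a. For the other 3 strands the odds were lower in both TghuTNF libraries, with differences of -0.73 ± 0.36 for miR-130a, -0.50 ± 0.31 for miR-130b and -0.77 ± 0.35 for miR-301a (SE; limma adjusted p = 0.83 each). Over the 307 miRNAs tested limma called 0 (0%), 14 (4.56%) had an unadjusted p under 0.05, and 26.7% were lower and 8.14% higher in both TghuTNF libraries. The median difference over all of them was -0.19.

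The 2-mismatch share of the family was highest in TghuTNF replicate 2. miR-130a had 549 2-mismatch reads in TghuTNF replicate 2, or 5.54% of its matches, against 32 (0.30%) in TghuTNF replicate 1 and 22 (0.31%) and 41 (0.30%) in WT. In miR-301a the 2-mismatch share was 13.9% in TghuTNF replicate 2 and 3.52% to 7.62% in the other 3 libraries, and in miR-130b it was 7.53% against 2.59% to 3.05%. Over all miRNAs the share in that library was 11.7%, against 8.21% to 8.73% in the others. Of the 307 miRNAs with a mean of at least 100 matches, 266 had a higher share there than the mean of the other 3 libraries, by a median of 3.98 percentage points. The 5.24 points of miR-130a were reached by 68 of the 307. As a ratio its share was 18.2 times the mean of the other 3 libraries, which 6 of the 307 reached, miR-130a included, and the median ratio was 1.62. Without TghuTNF replicate 2 the difference in log2 odds was -0.31 for miR-130a, -0.23 for miR-130b, -0.37 for miR-301a and 0.64 for miR-301b. Without TghuTNF replicate 1 it was -1.16 for miR-130a, -0.77 for miR-130b, -1.18 for miR-301a and 1.06 for miR-301b.

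**Figure D5:**
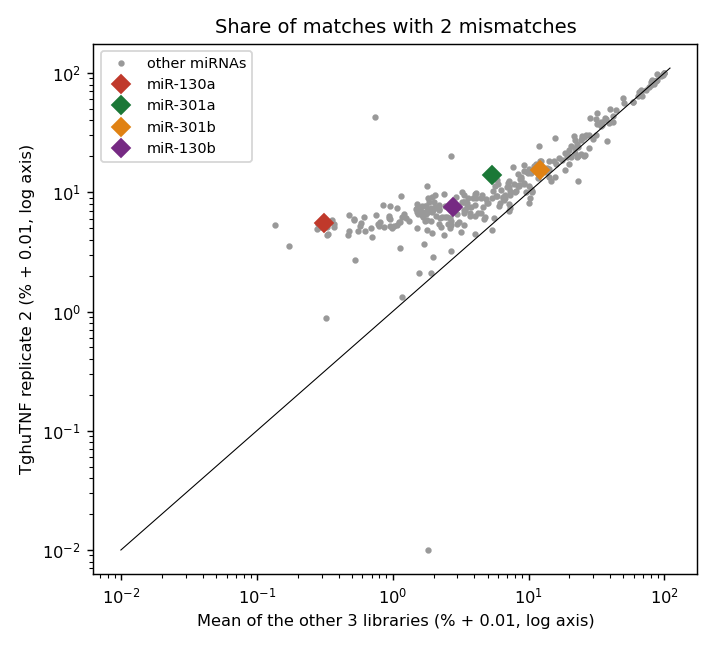
Share of matches with 2 mismatches in TghuTNF replicate 2 against the mean of the other 3 libraries, for 307 miRNAs (percent plus 0.01, both axes log; the line marks equality). Most miRNAs lie above the line, and miR-130a, at 5.54% against 0.30%, lies farther above it than the other 3 family strands, whose ratios are 1.26 to 2.71.

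A further strand with the same seed was listed, miR-721, whose hairpin lies in an intron of Cux1 on chromosome 5 (chr5:136375716-136375803, minus strand). It is shown because it carries the seed without being named in the family. It differed from miR-130a at 6 of 21 bases, against 10 of 22 between miR-130a and miR-301a.
miR-721: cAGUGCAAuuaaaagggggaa
It had 5 and 45 matches in TghuTNF and 4 and 6 in WT and did not pass the filter on low counts. All of them had 2 mismatches. With 0 perfect matches in any library, there was no read of miR-721 as annotated, which allows up to 3 reads per library. Its 45 matches fell in TghuTNF replicate 2, the library with the most 2-mismatch reads. RefSeq holds 3 more mouse strands with this seed, miR-130c, miR-6341 and miR-6389, which are not analysed here.

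miRNAs whose seed holds 6 bases of the family's seed shifted by 1 position were also without a called change. These were miR-19a and miR-19b of the growth-promoting miR-17-92 group, and miR-148a, miR-148b and miR-152, which repress the DNA methyltransferase Dnmt1. Of the 5, edgeR called 0, where it called 13.3% of all tested miRNAs. The median log2 fold change of the 5 was -0.37, beside 0.0056 over all tested miRNAs. Matches of miR-19a were 0.95 to 0.99 times those of miR-19b in every library, so these may not be 5 separate counts. miR-152 averaged 10522 ± 1435 CPM in TghuTNF and 13582 ± 787 CPM in WT (SD, n = 2 each; log2 fold change -0.37 ± 0.16, SE; edgeR adjusted p = 0.16). A sixth name found by the search, miR-291b-3p, had 1 match in all.

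Other miRNAs tied to the family's known roles gave the following counts by edgeR, which called 4.75% of all tested miRNAs higher and 8.6% lower in TghuTNF. Of 4 strands of miR-27a and miR-27b, which also repress Pparg, 0 were called (median log2 fold change -0.0088), with miR-27b at 12047 ± 1700 CPM in TghuTNF and 12747 ± 565 CPM in WT (SD, n = 2 each). Of 5 strands set downstream of the family in vascular cells, miR-204, miR-322, miR-503 and the opposite arms of miR-322 and miR-503, all 5 were lower in TghuTNF (median -2.30). miR-322 and miR-503 belong to 1 cluster and each opposite arm comes from the same hairpin, so these are not 5 independent counts. miR-322 was the most abundant of them, at 29.3 and 19.4 CPM in TghuTNF and 90.6 and 82.1 CPM in WT (edgeR adjusted p = 0.0010). Of 9 miRNAs of matrix and fibroblast activation 1 was lower, miR-214, and 8 were not called (median -0.045). All 4 miRNAs induced by TNF and NF-kB, miR-146a, miR-155, miR-221 and miR-222, were higher in TghuTNF (median 1.93). These lists were drawn up with earlier results of these libraries known, so their directions are no independent evidence.

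The miRNAs whose library-to-library pattern was closest to that of miR-130a were sought among 134 with at least 100 CPM, by the root mean square distance of centred log2 CPM over the 4 libraries. They were miR-30a (0.052), miR-30d (0.053), miR-872 (0.053), miR-30e (0.057) and miR-27b (0.072), where the median distance was 0.23. The rows of miR-30a, miR-30d and miR-30e were nearly equal, at 14624, 14478 and 14271 CPM on average in TghuTNF. Each had more mismatched than perfect reads in every library. Whether these rows count the same reads was not tested, so they may not be separate neighbours. None of the 5 was called between genotypes. With 4 libraries such closeness describes these samples only.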

How the data were processed

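The authors deposited 1 table per library, written by mimap 3d per the file headers, which give a read length of 37, a hash length of 9, up to 2 mismatches and 707 miRNAs searched. The deposited totals are unscaled read counts for each miRNA, and the other deposited column splits each count into parts with 0, 1 and 2 mismatches, per the file headers' mismatch limit. Neither the labels nor the headers state the adaptor trimming, the miRBase release or how a read fitting more than 1 miRNA was assigned.

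Counts were filtered with filterByExpr (442 miRNAs kept), scaled with TMM and compared between TghuTNF and WT with edgeR's quasi-likelihood test (version 4.0.16, R 4.3.3), with Benjamini-Hochberg adjustment over all miRNAs tested and a threshold of 0.05, two-sided. Perfect matches were filtered, scaled and tested in the same way (380 kept). Log2 odds of a perfect match (mean of at least 100 matches) and log2 arm ratios (at least 10 in both arms), with a pseudocount of 0.5, were compared with limma 3.58.1. Intervals for shares are exact binomial. Reads carry no molecular identifiers, so these intervals and the limit of 3 counts cover counting error only. DESeq2 1.42.0 was an alternative, with library size scaling, no filter, other mismatch classes, a replicate block and leaving out each library. File names without an arm mark were matched by hand to RefSeq's 3p strands and miR-130b* to the 5p strand. RefSeq and GENCODE M21 are both on GRCm38. The named miRNAs were the family, strands sharing or shifting its seed, up to 4 of each list and the 5 nearest patterns. Members and lists were chosen with earlier results of these data known.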

Additional observations from a re-analysis of the deposited data

How the results depend on the processing

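Of 50 refits of the 5 members, 0 passed the threshold (lowest edgeR adjusted p = 0.16, miR-301b in perfect matches) and 46 kept the sign. Of 35 further refits in perfect matches 0 passed. The lowest edgeR adjusted p were those of miR-301b, 0.083 without TghuTNF replicate 1, 0.11 with the replicate block and 0.13 without TghuTNF replicate 2. In these refits miR-301a turned to 0.10 without TghuTNF replicate 2 and 0.067 without WT replicate 2. The 4 of the 50 that turned the sign were these: miR-301a changed by -0.10 in perfect matches and -0.012 without TghuTNF replicate 1, and miR-301b by -0.082 without TghuTNF replicate 1 and -0.035 without WT replicate 1. When 1 library was left out they ran from -0.012 to 0.29 for miR-301a and from -0.082 to 0.28 for miR-301b. For miR-130a they ran from -0.30 without TghuTNF replicate 2 to -0.060 without WT replicate 2, for miR-130b from 0.14 without WT replicate 1 to 0.49 without WT replicate 2, and for miR-130b* from 0.11 without TghuTNF replicate 2 to 0.31 without WT replicate 2. The cause was not tested. Over all miRNAs edgeR called 59, against 93 without the filter, 87 with the replicate number as a block, and 49 to 153 when 1 library was left out, the highest without TghuTNF replicate 1. The block changed no member's call. Same-numbered libraries deviated with r = -0.093 over 250 miRNAs, so the numbers are not shown to pair the cultures. The seed pool's log2 ratio was -0.12, and -0.23 to 0.0038 when 1 library was left out. Calls on the odds of a perfect match, 0 at first, were 2 with a pseudocount of 5, 3 with the replicate block and 0 to 3 when 1 library was left out. Calls on arm ratios, 0 at first, were 0 to 1 when 1 library was left out. Depth limits miR-301b and miR-130b*, which rested on 36 to 138 and 24 to 45 perfect reads per library. Without a library the remaining one of its genotype is assumed to vary like the others.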
